A study of Mus musculus with 142 samples.

Results

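Integrins are receptors made of 1 alpha and 1 beta chain, and laminins are basement membrane proteins built from 1 alpha, 1 beta and 1 gamma chain. The genes described here are all protein-coding mouse genes whose symbols name an integrin alpha chain, an integrin beta chain 1 to 8 or a laminin alpha, beta or gamma chain. They number 37 of the 21495 protein-coding genes with a count in these libraries, with 18 integrin alpha, 8 integrin beta and 11 laminin genes. The alpha and beta chains together set which ligand an integrin binds, and binding recruits talin, kindlin and kinases such as FAK to its inner side. In the oligodendrocyte lineage, the laminin receptor of Itga6 and Itgb1 is known for survival and myelination, and Itgav paired with several beta chains is known from progenitors. Lama2, the laminin alpha chain whose loss causes a muscular dystrophy with white matter changes, is a ligand of such receptors.

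The series held RNA-seq libraries of cultured mouse oligodendrocyte precursor cells (OPCs) in 16 groups, formed by region (brainstem or telencephalon), genotype (Control or K27M) and day of differentiation (0, 1, 2 or 5). K27M cells came from mice in which a Cre driven by the human GFAP promoter, active in neural stem cells and their progeny, switched on H3.3 K27M from the endogenous H3f3a gene, and Control cells came from their littermates. Tissue of pups of postnatal days 5 to 7 was pooled within a litter by region and genotype, depleted of endothelial cells and microglia with BSL1, and panned for PDGFRa on antibody-coated dishes. Day 0 cells were in proliferation medium with PDGF and neurotrophin-3, and days 1 to 5 followed the change to medium with thyroid hormone. All cells grew on poly-D-lysine in forskolin and CNTF. Each region and genotype had 3 cultures, named 38, 41 and 42, with 8 or 9 wells per group. The matched Control and K27M cultures of a number were assayed at the same time, but not always at the same passage. Wells share the cells of a culture, so a gene was called here only where edgeR's adjusted p was under 0.05 both in a fit on wells and in a fit on counts summed within each culture (n = 3 cultures), with the same sign.

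Sequencing depth was 26566200 to 455387700 counts per library, with a median of 46895600. The deepest library, a brainstem Control well at day 5, was followed by one of 84735500 counts. Brainstem and telencephalon cultures belonged to different batches, so region and batch cannot be told apart, and Control cells had a mean passage of 5.51 in brainstem against 2.14 in telencephalon. K27M cells had mean passages of 3.83 and 2.11. In brainstem pair 41, K27M cells were at passages 1 to 2 and Control cells at 4 to 5, so genotype and passage cannot be told apart within it. The passage ranges of the other pairs overlapped over all days. Within a day, however, brainstem pair 42 and telencephalon pairs 38 and 41 shared no passage at any day, nor did brainstem pair 38 at day 1. At day 5, Control and K27M cells were at passages 7 and 4 in brainstem pair 42 and both at passage 4 in brainstem pair 38. The summed level of 5 OPC markers was 2079 to 3757 CPM (counts scaled to library size) at day 0, and that of 6 oligodendrocyte markers went from 207 to 2461 CPM at day 0 to 29280 to 69370 CPM at day 5. In these bulk libraries, fewer cells of a type and less RNA per cell cannot be told apart. The microglial markers summed to at most 7.85 CPM, with a median of 0 for Tyrobp in each day 5 group, and the endothelial markers summed to at most 17.4 CPM. The summed astrocyte markers, in contrast, ranged from 43.0 to 14350 CPM and differed between groups, as described beside the genes that moved with them.

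Of the 37 members, 18 reached a mean of 1 TPM (a level scaled by transcript length and library total) in at least 1 group and 7 reached 10 TPM. Itgb1, the common partner of most alpha chains, had the highest level at 58.7 TPM in telencephalon Control at day 2. It was followed by Itgav, the alpha chain of receptors for RGD-containing ligands, at 44.2 TPM in brainstem Control at day 0, and by Itgb8, an Itgav partner that activates latent TGF-beta, at 25.6 TPM in telencephalon K27M at day 1. Itga8, whose ligands include nephronectin, reached 21.3 TPM, the laminin gamma chain Lamc1 17.5 TPM, the tenascin and osteopontin receptor chain Itga9 13.9 TPM, and the laminin alpha chain Lama4 12.4 TPM. In telencephalon Control at day 0, Itgb1 (54.3 ± 4.74 TPM, SD, n = 3 cultures) stood above Itgav (30.8 ± 5.54), while Itgav and Itgb8 (24.8 ± 2.77) overlapped within their SD. In brainstem Control at day 0, Itgb1 (53.2 ± 21.8 TPM) and Itgav (44.2 ± 12.2) could not be ordered. By day 5 Itgb1 held 33.0 ± 5.26 TPM in brainstem Control and 39.7 ± 2.50 TPM in telencephalon Control, still the highest mean of any member in both.

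**Figure D1:**
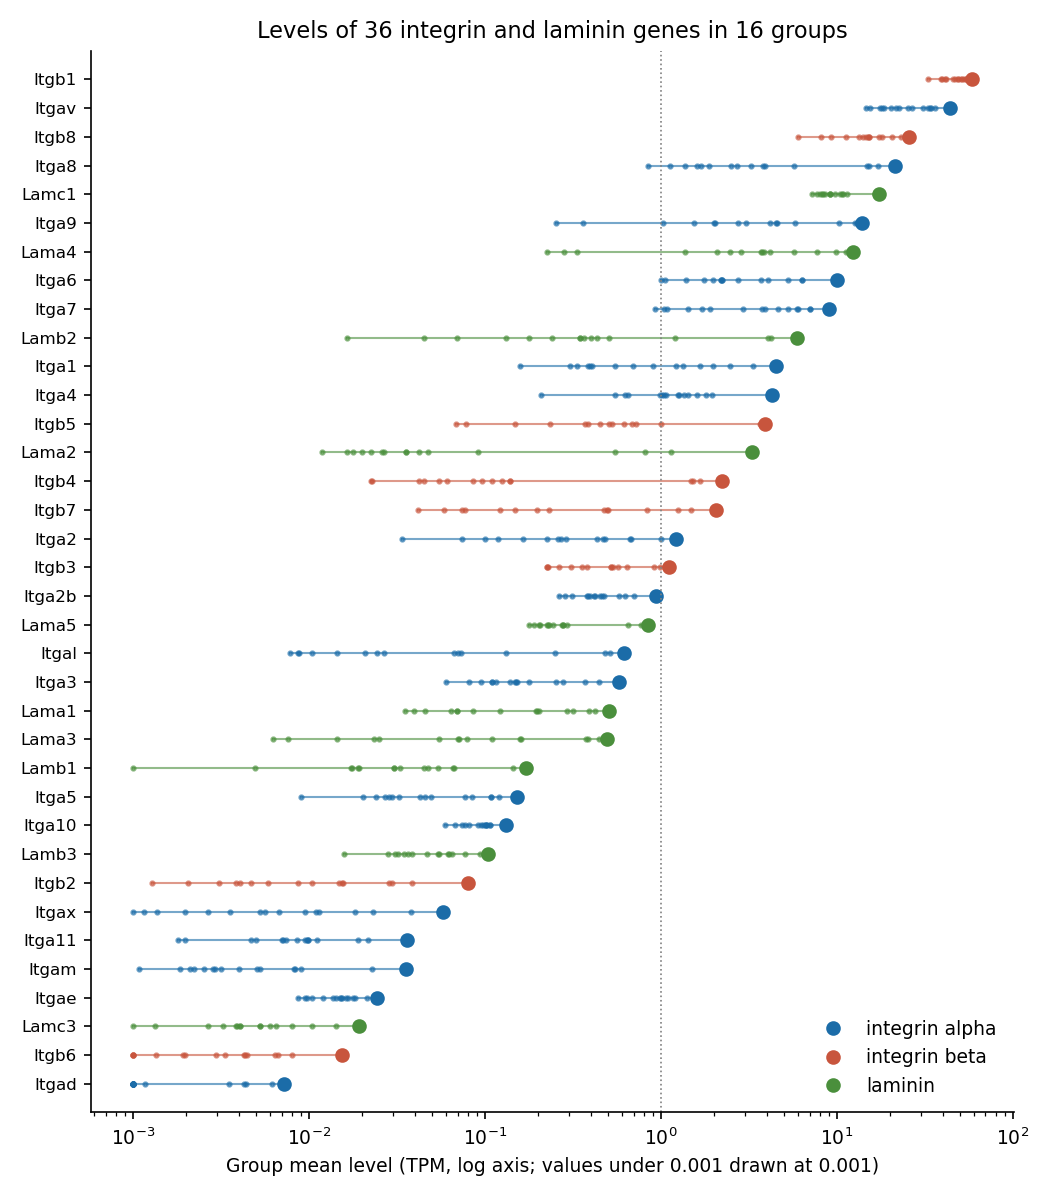
Group means of summed TPM (log axis) for 36 of the 37 members, 1 small dot per group and 1 large dot for the group with the highest mean. Itgb1 sits at the top with up to 58.7 TPM, and 18 members have a large dot at or above 1 TPM.

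Among the laminins, the genes for a complete trimer were unequal in level. Lamc1 had a highest group mean of 17.5 TPM, while Lamb1, the widespread beta chain, had a highest group mean of 0.172 TPM and Lamb2, the beta chain of synaptic and vascular basement membranes, 5.94 TPM in telencephalon Control at day 5. Lamb1 was at a median of 0 to 0.163 CPM in every group, although single libraries reached 11.5 CPM. Integrin chains known from white blood cells were unequal in level too. Itga4 reached a highest group mean of 4.295 TPM, its partner Itgb7 2.06 TPM and Itgal 0.621 TPM. Itgax, Itgam and Itgad, with Itgb6 and Lamc3, were too low to be tested, which left 32 members tested among 19769 genes. Itgb2, the beta chain that pairs with Itgal, Itgax, Itgam and Itgad, reached a highest group mean of 0.0795 TPM.

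The share of a gene's level on 1 transcript varied between members. Itgb1-201 held a median of 98.5 to 99.5% of the gene's TPM in all 16 groups, Lamc1-201 held 90.2 to 96.0% and Itgb8-201 held 88.2 to 95.7%. Itgav was split between 2 coding transcripts, with 68.7 to 75.9% for Itgav-201 and 17.4 to 26.1% for Itgav-206. Of Itga6, a processed transcript without an annotated reading frame, Itga6-203, took 32.9 to 42.5% in the 15 groups with at least 3 libraries of at least 1 TPM of the gene. Of Itga4, Itga4-203, also a processed transcript, held the largest share, with medians of 44.0 and 44.5% in telencephalon K27M at days 1 and 2 against 29.6 and 30.3% for the coding Itga4-201, and the gene totals tested below include both. Reads shared by transcripts were divided by the quantifier's model, so these shares carry its error too.

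Promoter sequence is shown for 4 members whose changes recur below, to give the start sites context. Each run holds the 250 bases before the RefSeq start on GRCm38.p6, 5′ to 3′ on the gene's strand, with every CG dinucleotide in capitals. Itga4, the alpha chain of the VCAM-1 and fibronectin receptors, lies on the plus strand and its window is chr2:79255176-79255425. Itga2, a collagen and laminin receptor chain, lies on the minus strand with its window at chr13:114932101-114932350. Itgb5, the beta chain of the vitronectin receptor with Itgav, has its window on the plus strand at chr16:33829415-33829664. Lama5, a laminin alpha chain of mature basement membranes, has its window on the minus strand at chr2:180225860-180226109.
Itga4: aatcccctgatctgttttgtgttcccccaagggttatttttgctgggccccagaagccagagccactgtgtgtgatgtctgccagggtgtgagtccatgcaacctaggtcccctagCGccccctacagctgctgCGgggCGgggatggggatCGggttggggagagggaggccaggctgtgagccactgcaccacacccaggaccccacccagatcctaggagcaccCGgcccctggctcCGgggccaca
Itga2: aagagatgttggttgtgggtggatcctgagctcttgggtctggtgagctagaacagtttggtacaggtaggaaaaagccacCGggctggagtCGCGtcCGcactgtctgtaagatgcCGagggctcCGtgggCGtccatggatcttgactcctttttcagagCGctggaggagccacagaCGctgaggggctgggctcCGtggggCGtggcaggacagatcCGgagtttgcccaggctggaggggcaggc
Itgb5: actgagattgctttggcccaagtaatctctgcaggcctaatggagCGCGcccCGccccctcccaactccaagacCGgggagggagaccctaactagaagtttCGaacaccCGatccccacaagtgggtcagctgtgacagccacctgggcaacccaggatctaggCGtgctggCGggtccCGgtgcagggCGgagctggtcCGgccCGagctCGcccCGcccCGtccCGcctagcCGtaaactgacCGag
Lama5: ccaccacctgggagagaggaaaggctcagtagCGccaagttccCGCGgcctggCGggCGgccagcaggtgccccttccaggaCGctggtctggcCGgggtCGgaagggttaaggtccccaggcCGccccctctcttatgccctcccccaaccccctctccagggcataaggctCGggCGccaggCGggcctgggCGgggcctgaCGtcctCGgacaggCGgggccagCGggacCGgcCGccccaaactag
The windows of Itga4, Itga2, Itgb5 and Lama5 hold 6, 12, 18 and 19 CG dinucleotides. Of 16312 promoter windows of that length, 64.7%, 47.5%, 30.1% and 27% hold at least as many. A window was found for 23 of the 37 members, too few for a comparison over the family.

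The first comparison asked how the receptors and ligands changed as control cells differentiated, from day 0 to day 5. In brainstem Control, 15 of the 32 tested members rose and 7 fell, where 32.8% of all genes rose and 32.1% fell. In telencephalon Control, 16 rose and 7 fell, with 33.9% and 30.5% for all genes. The median log2 fold change over the members was 0.76 in brainstem and 1.096 in telencephalon, against 0.07 and 0.09 over all genes. By family, 6 alpha chains rose and 4 fell in brainstem, 3 beta chains rose and 0 fell, and 6 laminins rose and 3 fell. In telencephalon the counts were 7 and 3 for alpha chains, 4 and 1 for beta chains, and 5 and 3 for laminins. Of the 16 alternative analyses, 14 could end a call, since the other 2 are each one of the fits that a call needs. In these 14, 15 of 22 calls in brainstem and 16 of 23 in telencephalon were kept, and Itgb2 in telencephalon was kept in the 13 that gave it a value. Leaving out 1 culture ended the calls of Itga3, Itga6, Itga11 and Itgb5 (culture 38) and Itga1 (culture 42) in brainstem, and in telencephalon those of Lamb3 (culture 38), Itga7 (culture 38 or 42), Itga4 (culture 42), and Itgb7 and Lamc1 (culture 41).

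Laminin alpha chains changed in both directions. Lama4, the alpha chain of vascular and early basement membranes (chr10:38965515-39110188), had 68.6, 76.2 and 92.7 CPM as the lowest, median and highest brainstem Control library at day 0 and 2.45, 2.91 and 4.52 CPM at day 5. The libraries of the 2 days did not overlap, and the fall was 4.65 ± 0.17 (SE) on the log2 scale (adjusted p = 2e-51 on wells and 1.1e-13 on culture sums). In telencephalon Control, Lama4 went from 36.2, 68.5 and 101.4 CPM to 1.155, 3.37 and 4.02 CPM, a log2 fold change of -4.55 ± 0.17. Lama1, the alpha chain of embryonic laminin, also fell, by 2.97 ± 0.25 in brainstem and 3.42 ± 0.26 in telencephalon on the log2 scale. In the other direction, Lama2 (chr10:26980036-27619758) had 0.0176, 0.0595 and 0.123 CPM at day 0 and 3.04, 5.13 and 7.23 CPM at day 5 in brainstem Control, again without overlap, and its log2 fold change was 6.37 ± 0.43. It was 5.19 ± 0.37 in telencephalon. Lama5 rose by nearly the same amount in both regions, with log2 fold changes of 2.25 ± 0.17 and 2.29 ± 0.17. Lama3, the alpha chain of epithelial laminin-332, rose in brainstem (3.44 ± 0.46).

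Among beta and gamma chains, Lamb2 rose in both regions, with log2 fold changes of 5.00 ± 0.60 in brainstem and 4.34 ± 0.47 in telencephalon. Lamc1 rose by 0.79 ± 0.12 and 0.81 ± 0.12. Its day 2 median was higher than that of either end, with 97.6, 308 and 141.6 CPM at days 0, 2 and 5 in brainstem Control. In telencephalon Control the medians were 92.9, 281 and 166 CPM. Day 2 was not tested against either end, and the brainstem Control libraries of day 2 overlapped those of days 0 and 5. Lamb3, a beta chain of epithelial laminin, fell in both, by 1.55 ± 0.26 and 0.865 ± 0.29 on the log2 scale, from day 0 libraries of at most 0.596 CPM. Lamb1 changed by -1.24 ± 1.07 in brainstem and 3.17 ± 1.25 in telencephalon and passed in neither. The Lamc1 calls were lost with no replicate block in both regions. The astrocyte markers differed between the days too. In telencephalon Control they summed to 221 to 657 CPM per culture at day 0 and 2938 to 11490 CPM at day 5, and the mural and fibroblast markers to 3.89 to 16.15 CPM and 14.65 to 38.7 CPM. In brainstem Control the astrocyte markers went from 228.9, 212 and 173.5 CPM in cultures 38, 41 and 42 to 1590, 137 and 182 CPM, and the mural and fibroblast markers from 0.874 to 1.201 CPM to 0.958 to 2.20 CPM. Without culture 38, the brainstem log2 fold change of Lamb2 was 3.36 and it still passed. The part of these markers in the rises of the members was not tested.

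Among the integrins, Itgb4, the laminin receptor chain that pairs with Itga6 in hemidesmosomes and Schwann cells (chr11:115974709-116008412), rose the most of the beta chains. Its brainstem Control libraries had 0.0456, 0.121 and 0.175 CPM at day 0 and 8.05, 9.20 and 16.7 CPM at day 5, and the log2 fold change was 6.57 ± 0.26 (adjusted p = 2.3e-48 on wells and 2.2e-13 on culture sums). In telencephalon Control it was 4.79 ± 0.23, from 0.267, 0.372 and 0.613 CPM to 6.37, 13.0 and 14.7 CPM. The days did not overlap in either region. Its partner Itga6 rose by 1.06 ± 0.22 and 1.71 ± 0.22 on the log2 scale, and Itga3, the laminin-332 receptor chain, by 1.06 ± 0.22 and 2.60 ± 0.22. In brainstem both calls were lost without culture 38, the one whose astrocyte markers were higher at day 5, and the log2 fold changes were then 0.37 for Itga6 and 0.63 for Itga3. The Schwann cell markers summed to 5.25 to 22.1 CPM at day 0 and 5.24 to 7.87 CPM at day 5 in brainstem Control. In telencephalon Control they summed to 3.63 to 18.5 CPM and 5.75 to 9.42 CPM. Culture 38 rose in both regions, from 5.905 to 7.416 CPM and from 3.991 to 7.765 CPM, and cultures 41 and 42 fell in both. The part of these markers in the Itgb4 rise was not tested.

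Itga8 fell by 2.83 ± 0.30 in brainstem and 2.50 ± 0.30 in telencephalon on the log2 scale, and Itga9 by 2.59 ± 0.17 and 3.23 ± 0.18. Itgav fell in brainstem (-0.91 ± 0.12) and changed by -0.08 ± 0.12 in telencephalon, where it did not pass. Itgb3, the beta chain of the platelet and Itgav receptors, fell in telencephalon (-1.65 ± 0.19) and changed by 0.28 ± 0.19 in brainstem without passing. Itgb5 rose in both (2.75 ± 0.41 and 2.91 ± 0.38), but its brainstem fold change was 1.31 without culture 38 and the call was then lost. Itgb1 changed by -0.02 ± 0.07 and 0.03 ± 0.07, and Itgb8 by -0.37 ± 0.13 and -0.29 ± 0.13, and neither passed. Itga2 rose in both regions (3.35 ± 0.31 and 1.61 ± 0.28), as did Itga2b (1.31 ± 0.15 and 1.60 ± 0.15), Itga11 and Itgb7 (1.86 ± 0.31 and 1.88 ± 0.32). Itgb7 was highest in between, with medians of 0.172, 5.88 and 0.739 CPM at days 0, 2 and 5 in brainstem Control. Itga7 rose and Itga4 fell in telencephalon (1.18 ± 0.27 and -1.07 ± 0.20), and Itga1 fell in brainstem (-2.05 ± 0.32). Itga10 and Itgae, like Itgb8, were called in none of the 18 comparisons. Whether the changes differed between the regions was not tested.

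Itgal, the alpha chain of the leukocyte receptor LFA-1 (chr7:127296260-127335138), rose by 6.29 ± 0.45 in brainstem and 5.27 ± 0.45 in telencephalon on the log2 scale. In brainstem Control its libraries had 0, 0.0459 and 0.176 CPM at day 0 and 3.65, 4.45 and 6.39 CPM at day 5. The known partner Itgb2 had 0.0264, 0.0533 and 0.211 CPM in those day 5 libraries, and rose in telencephalon Control from 0, 0.0170 and 0.0547 CPM to 0.0310, 0.125 and 0.365 CPM. The 7 microglial markers summed to 1.06 to 2.82 CPM in brainstem Control at day 5, carried mostly by P2ry12, with Tyrobp at 0 in each of those libraries. Per culture the sum went from 0.199 to 0.258 CPM at day 0 to 1.196 to 2.64 CPM at day 5 in brainstem Control and from 0.536 to 0.765 CPM to 2.00 to 2.90 CPM in telencephalon Control. The sum was higher at day 5 in each culture, and its part in the Itgal rise was not tested.

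Of the 42 other adhesion genes listed (talins, kindlins, FAK and Src kinases, adaptors, basement membrane partners and other ligands), 39 were tested, and 18 rose and 8 fell in brainstem Control, where 32.8% of all genes rose and 32.1% fell. In telencephalon Control 24 rose and 6 fell, with 33.9% and 30.5% for all genes. The adaptors Parvg and Parvb, which link integrins to actin, rose in both, with log2 fold changes of 5.65 ± 0.46 and 4.85 ± 0.46 in brainstem and 4.11 ± 0.43 and 4.45 ± 0.46 in telencephalon. Tnc, a matrix ligand of Itga8 and Itga9, fell in both, by 3.88 ± 0.41 and 4.84 ± 0.43 on the log2 scale. Bcam, a Lama5 receptor, fell in brainstem (-1.57 ± 0.13) and the kindlin Fermt3 in telencephalon (-0.94 ± 0.14). The list's median log2 fold changes were 0.50 and 0.82.

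**Figure D2:**
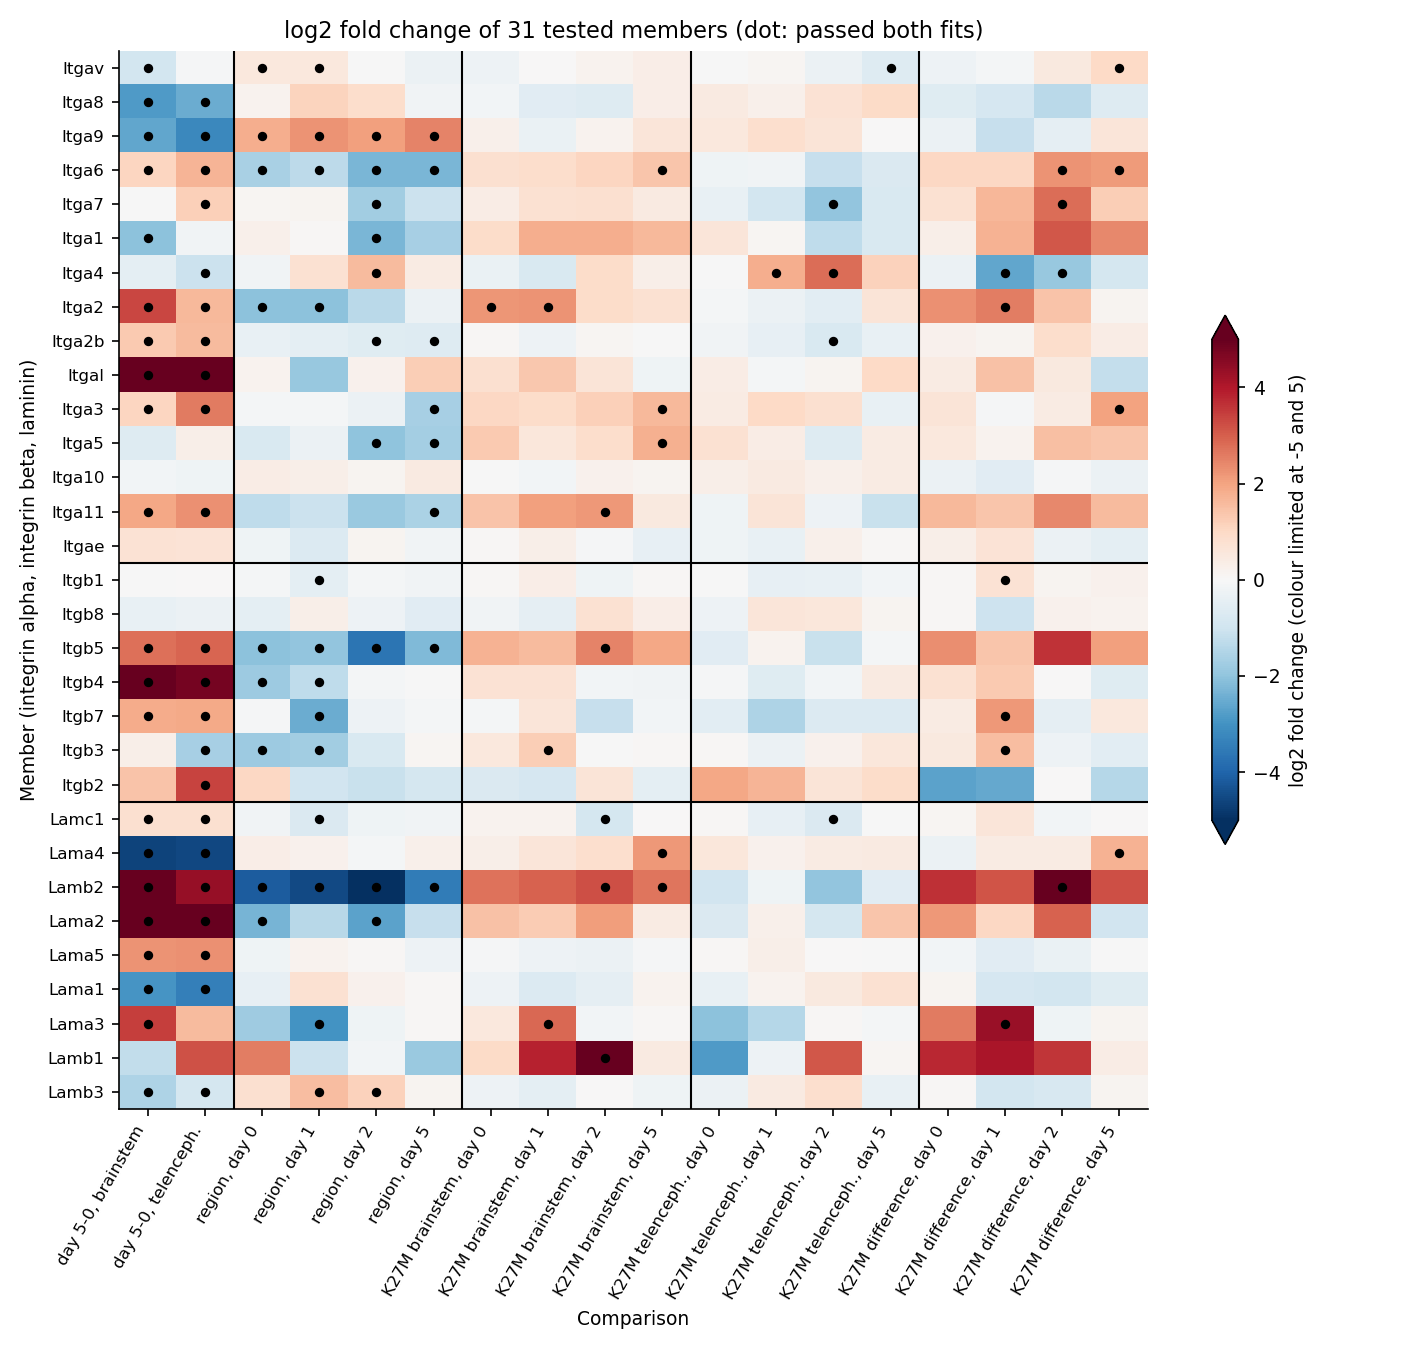
Heatmap of fitted log2 fold changes of 31 of the 32 tested members (rows) in the 18 comparisons (columns), colours limited to 5 in either direction and a dot where a gene was called. The day 5 against day 0 columns hold 21 and 22 dots, and Itga9 has a dot in each of the 4 region columns.

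The next comparison asked whether the region of origin set these levels, as brainstem minus telencephalon in Control cells. At day 0, 2 members were higher in brainstem and 7 lower, at day 1, 3 and 11, at day 2, 3 and 8, and at day 5, 1 and 7. Of all genes, 5.89% were higher and 6.26% lower at day 0, 15.2% and 16.3% at day 1, 5.43% and 6.04% at day 2, and 5.84% and 10.8% at day 5. The median log2 difference over members was -0.19, -0.59, -0.24 and -0.27 at the 4 days, against -0.04, -0.02, 0.01 and 0.04 over all genes. Culture-to-culture spread stays out of the residual of this fit, since cultures are nested in regions. With no replicate block the counts were 1 and 5, 2 and 8, 3 and 6, and 1 and 3. The shares of all genes were then 1.84% and 1.81%, 9.96% and 9.39%, 2.67% and 3.25%, and 1.76% and 5.71%. With culture number shared across regions as the block the counts were 1 and 5, 3 and 8, 3 and 7, and 1 and 4. In that setting the shares of all genes were 2.67% and 2.57%, 12% and 11.4%, 3.23% and 3.81%, and 2.85% and 7.01%. Leaving out culture 38 gave 1 and 3, 2 and 8, 1 and 4, and 1 and 9, leaving out culture 41 gave 1 and 7, 4 and 7, 3 and 7, and 1 and 5, and leaving out culture 42 gave 1 and 3, 2 and 5, 2 and 3, and 1 and 0. With passage as a covariate the counts were 1 and 2, 3 and 4, 2 and 0, and 1 and 1. The shares of all genes were not counted with passage or with a culture left out. A loss particular to the members therefore cannot be told from a general one in those fits. Without the 5 brainstem Control wells that detected the most genes (29299 to 33752) the day 5 counts were 1 and 4, against 2.79% and 5.69% of all genes.

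Itga9 (chr9:118606690-118901003) was higher in brainstem at all 4 days, the only member called at each day that also kept each call in all 14 alternatives that could end one. At day 0 its brainstem Control libraries had 90.2, 93.8 and 118 CPM against 24.7, 25.6 and 36.6 CPM in telencephalon, and at day 5 they had 9.34, 14.5 and 28.0 CPM against 2.12, 2.67 and 3.99 CPM. The regions did not overlap at either day although the gene fell with differentiation in both. The log2 differences were 1.83 ± 0.16, 2.24 ± 0.17, 2.05 ± 0.17 and 2.47 ± 0.18 at days 0, 1, 2 and 5, with adjusted p on culture sums of 0.00014, 5.5e-06, 4e-05 and 3.8e-06. Itga4, its closest relative among the alpha chains, was higher in brainstem at day 2 alone (1.58 ± 0.21), a call lost without culture 38.

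Itgb3 was lower in brainstem at days 0 and 1, with 1.94, 2.55 and 3.36 CPM against 6.87, 9.15 and 11.9 CPM at day 0. These did not overlap, and the log2 differences of -1.83 ± 0.19 and -1.73 ± 0.20 were kept in all 14 such alternatives. They were -0.77 ± 0.19 at day 2 and 0.10 ± 0.19 at day 5, where the test was not passed. Itgb7, a beta chain known from lymphocytes and the partner of Itga4, was lower in brainstem at day 1, with 0.693, 1.21 and 2.22 CPM against 4.46, 6.45 and 9.55 CPM and a log2 difference of -2.49 ± 0.29 that was also kept in all 14. Itga2 was lower in brainstem at days 0 and 1 (-2.05 ± 0.31 and -2.06 ± 0.36), but not with passage as a covariate, nor without culture 38 at day 0 or culture 42 at day 1, and Lama3 at day 1 (-2.98 ± 0.45), but not without culture 41.

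Lamb2, Itgb5 and Itga6 were lower in brainstem at all 4 days. Lamb2 differed most, with 0.0218, 0.185 and 0.329 CPM in brainstem Control against 3.54, 11.2 and 20.1 CPM in telencephalon Control at day 2, without overlap, and log2 differences of -4.15 ± 0.59, -4.52 ± 0.70, -5.89 ± 0.60 and -3.49 ± 0.46. For Itgb5 they were -2.04 ± 0.40, -1.96 ± 0.45, -3.67 ± 0.44 and -2.20 ± 0.37, and for Itga6 -1.63 ± 0.22, -1.33 ± 0.23, -2.29 ± 0.23 and -2.28 ± 0.22. The summed astrocyte markers moved the same way, with 115, 217 and 285 CPM in brainstem Control against 212, 575 and 712 CPM in telencephalon Control at day 0, and 120, 175 and 1727 CPM against 2363, 6162 and 14350 CPM at day 5. All 6 astrocyte markers had a mean of at least 1 CPM in telencephalon Control at day 5 and 5 of 6 in brainstem Control, and their part in these differences was not tested. The 9 mural and fibroblast markers did so too, with 0.397 to 2.37 CPM in brainstem Control and 11.97 to 50.9 CPM in telencephalon Control at day 5, and their part was not tested either. With passage as a covariate the calls of Lamb2 and Itgb5 were lost at every day and those of Itga6 at days 0 to 2. Without culture 42 the calls of Lamb2 and Itga6 were lost at days 0, 1 and 5, and that of Itgb5 at all 4 days. The Itgb5 calls at days 0, 1 and 5 were also lost with no replicate block and with culture number shared across regions as the block.

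**Figure D3:**
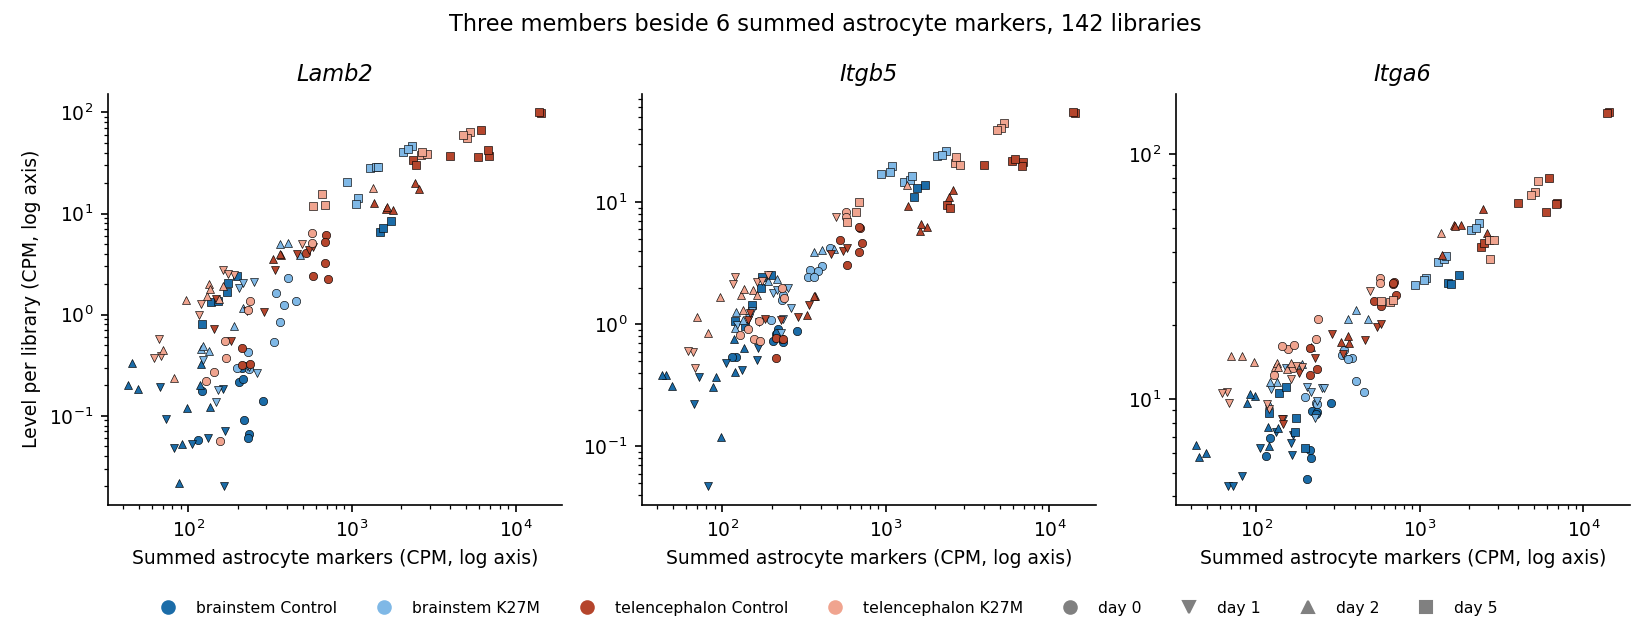
CPM of Lamb2, Itgb5 and Itga6 (vertical, log axis) against the summed CPM of 6 astrocyte markers (horizontal, log axis) in all libraries, coloured by region and genotype. The library with the highest marker sum, 14350 CPM, is of telencephalon Control at day 5, the group in which Lamb2 reaches 100.7 CPM and Itgb5 54.9 CPM.

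The remaining members described at every comparison gave few calls between regions. Itgav was higher in brainstem at days 0 and 1 (0.54 ± 0.12 and 0.53 ± 0.12) and differed by -0.04 ± 0.12 and -0.29 ± 0.12 at days 2 and 5. Its day 0 call was kept in 4 of the 14 alternatives that could end it, and its day 1 call in 8. The day 1 call was lost with no replicate block, with passage as a covariate, without culture 38 and without culture 42, among others. Itgb1 and Lamc1 were lower in brainstem at day 1 (-0.47 ± 0.07 and -0.72 ± 0.13) and at no other day, and both calls were lost with no replicate block. At days 0, 2 and 5, Itgb1 differed by -0.11 ± 0.07, -0.09 ± 0.07 and -0.16 ± 0.07 and Lamc1 by -0.18 ± 0.12, -0.22 ± 0.12 and -0.19 ± 0.12. Lama2 was lower at days 0 and 2 (-2.33 ± 0.48 and -2.67 ± 0.44) and differed by -1.38 ± 0.51 and -1.15 ± 0.30 at days 1 and 5. Both Lama2 calls were lost with passage as a covariate, without culture 38 and without culture 42, and that at day 0 also with no replicate block, with the shared block and with an effective length offset. Itgb8 differed by -0.48 ± 0.13, 0.30 ± 0.14, -0.26 ± 0.13 and -0.56 ± 0.13 and Lamb1 by 2.56 ± 1.26, -1.06 ± 1.40, -0.15 ± 2.79 and -1.86 ± 1.08 at the 4 days, none of which passed. Itga1, a collagen and laminin receptor chain, was lower at day 2 (-2.27 ± 0.33), and Itga3 at day 5 (-1.66 ± 0.21), and both calls were lost with passage as a covariate and without culture 42.

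Of the 39 adhesion genes tested, 0 were higher in brainstem at any day, where 5.89%, 15.2%, 5.43% and 5.84% of all genes were higher. At days 0, 1, 2 and 5, 2, 10, 7 and 13 were lower, against 6.26%, 16.3%, 6.04% and 10.8% of all genes. With no replicate block, 0, 6, 4 and 9 were lower, against 1.81%, 9.39%, 3.25% and 5.71% of all genes. At day 0 the tetraspanin Cd9 was lower (-1.41 ± 0.14), and at day 1 the adaptor Tns1 (-3.04 ± 0.47) and the matrix protein Thbs1 (-2.94 ± 0.52). At day 2 Spp1, which encodes osteopontin, and Thbs1 were lower (-4.78 ± 1.03 and -4.72 ± 0.50), and at day 5 Thbs1 and Nid2, a laminin-binding nidogen (-5.55 ± 0.46 and -2.88 ± 0.27).

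**Figure D4:**
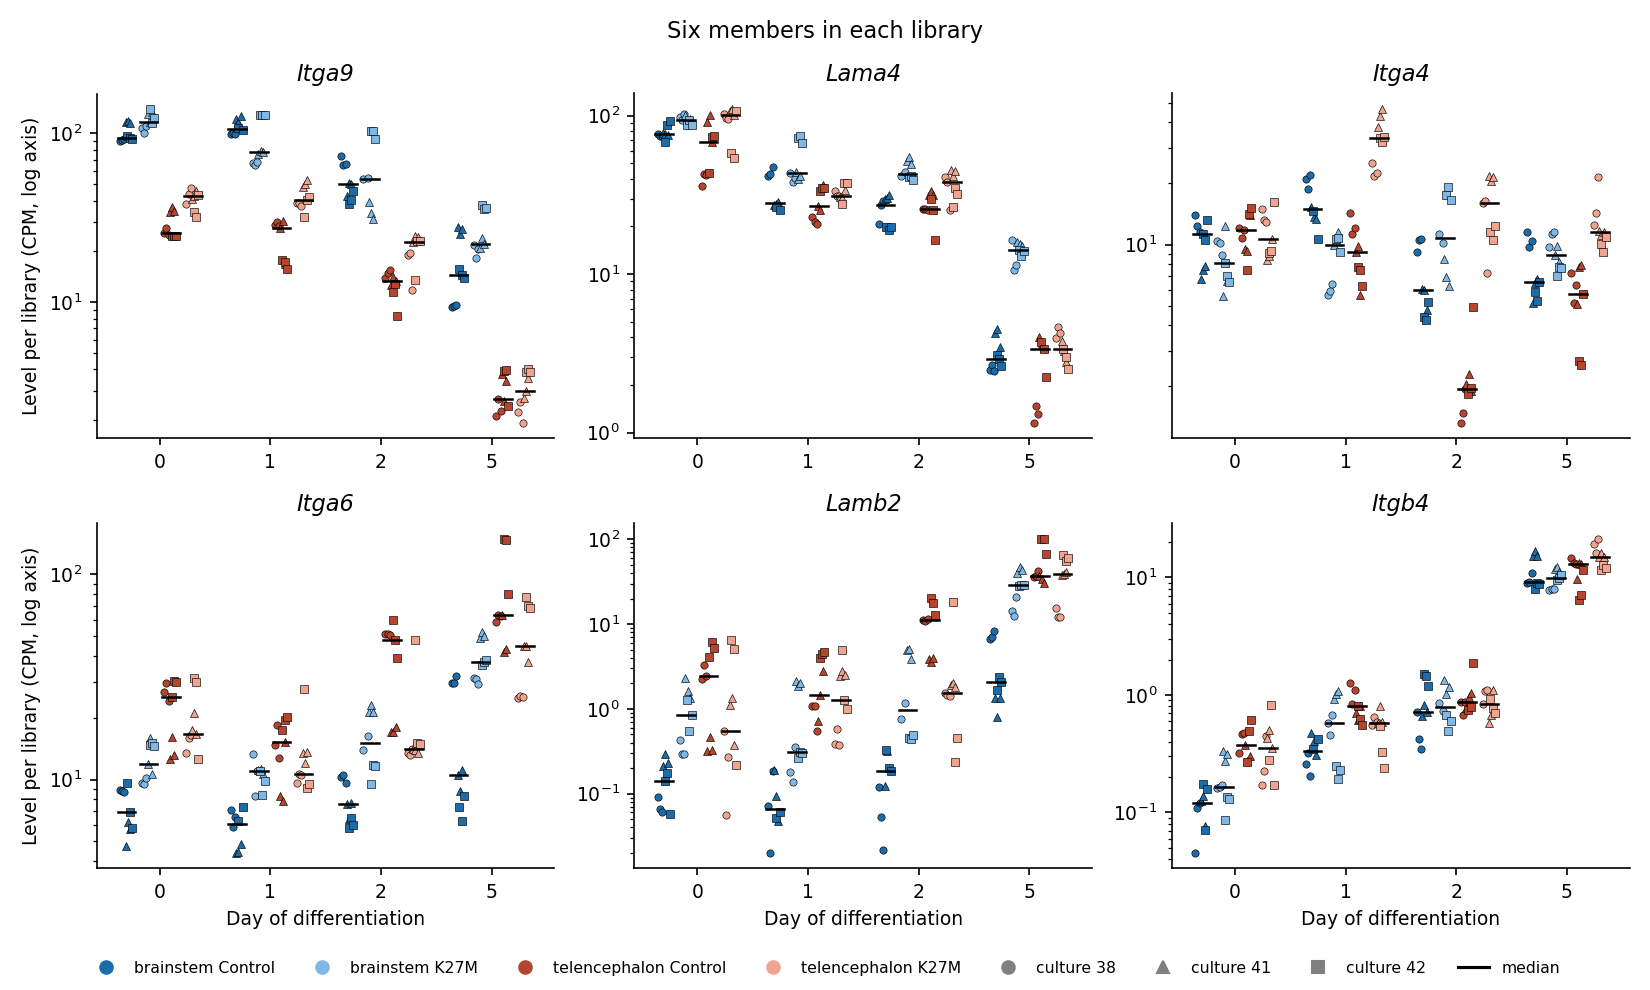
CPM per library (log axis) of Itga9, Lama4, Itga4, Itga6, Lamb2 and Itgb4 by day, coloured by region and genotype, with the culture as marker shape and the group median as a bar. Brainstem Itga9 lies above telencephalon Itga9 in Control cells at days 0 and 5, and Lama4 at day 5 is highest in brainstem K27M, at 10.6 to 16.45 CPM.

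The K27M comparison asked what the mutant histone changed within each region. In brainstem, 1 member rose and 0 fell at day 0, 3 and 0 at day 1, 4 and 1 at day 2, and 6 and 0 at day 5. Of all genes, 1.2% rose and 0.248% fell at day 0, 2.58% and 2.35% at day 1, 3.18% and 1.09% at day 2, and 8.36% and 3.78% at day 5. The median log2 fold change over members was 0.32, 0.62, 0.42 and 0.33, against 0.01, 0.03, 0.00 and -0.03 over all genes. Fitted with no replicate block, 0.678% and 0.126%, 1.24% and 0.481%, 1.67% and 0.4%, and 5.22% and 1.7% of all genes were called. The member counts in that fit were 1 and 0, 2 and 0, 1 and 0, and 3 and 0. Without culture 41 they were 0, 0 and 0 in each direction at days 0, 1 and 2 and 1 and 0 at day 5. In that brainstem pair, K27M and Control cells shared no passage, and in pair 42 they shared none within a day. Without culture 42 the counts were 1 and 0, 4 and 0, 1 and 0, and 1 and 0, and without culture 38 they were 0 and 0, 5 and 0, 3 and 1, and 9 and 0. With passage as a covariate they were 0 and 0, 2 and 0, 2 and 0, and 2 and 0. For these fits, with passage or without a culture, the shares of all genes were not counted. Fewer member calls there cannot be told from fewer calls among all genes.

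Lama4 at day 5 in brainstem was the one K27M call there that held in all 14 alternatives that could end it. Control libraries had 2.45, 2.91 and 4.52 CPM and K27M libraries had 10.6, 14.15 and 16.45 CPM, with no overlap. The log2 fold change was 2.17 ± 0.16 (adjusted p = 2e-23 on wells and 3.1e-06 on culture sums), and the differences within the culture pairs 38, 41 and 42 were 2.27, 1.92 and 2.21 on the log2(CPM + 0.1) scale. Across the alternatives the fold change stayed between 2.02 and 2.40. Lama4 is the member that fell most with differentiation in Control cells of both regions, and brainstem K27M libraries at day 0 had 87.1, 94.2 and 102 CPM. Summed oligodendrocyte markers at day 5 were 45970 to 65720 CPM in brainstem Control and 29910 to 38490 CPM in brainstem K27M. The mural and fibroblast markers summed to 0.397 to 2.37 CPM and 3.58 to 11.97 CPM, and the endothelial markers to 0.936 to 3.46 CPM and 6.26 to 10.5 CPM. In cultures 38, 41 and 42 the endothelial sums were 1.18, 3.04 and 1.21 CPM in Control and 6.78, 9.83 and 9.995 CPM in K27M. Of the 5 endothelial markers, 1 had a mean of at least 1 CPM in each group. The astrocyte markers summed to 1590, 137 and 182 CPM in Control cultures 38, 41 and 42 and to 1030, 2189 and 1379 CPM in K27M, lower in pair 38 and higher in the other pairs. The part of these marker differences in the Lama4 call was not tested.

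Other members rose at day 5 in brainstem K27M. Itga3 rose by 1.63 ± 0.21 on the log2 scale, from 0.786, 1.33 and 1.89 CPM to 2.20, 4.20 and 6.89 CPM, with no overlap, and the call was lost only without culture 41 or 42. Itga5, the fibronectin receptor chain, rose by 1.77 ± 0.33, Itga6 by 1.41 ± 0.22 and Lamb2 by 2.69 ± 0.46, and these 3 calls were lost without culture 41, without culture 42, with passage as a covariate and without the 5 Control wells with the most genes detected. Those of Itga6 and Lamb2 were also lost with no replicate block and with the shared block. Itga6 differed between cultures. In cultures 38, 41 and 42 it had 30.4, 10.2 and 7.32 CPM in Control and 30.4, 50.6 and 37.4 CPM in K27M. The astrocyte sums of the same cultures, given with Lama4, were likewise higher in K27M in pairs 41 and 42, and their part in these calls was not tested. Itgb5 changed by 1.94 ± 0.37 at day 5, which passed on wells but not on culture sums (adjusted p = 0.059). Without those 5 wells, among which were all 3 day 5 wells of Control culture 41, 3 members rose, and 4.25% of all genes.

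At days 0 to 2 in brainstem, 8 members were called in K27M. Itga2 rose at day 0, from 0.388, 0.893 and 0.999 CPM to 2.23, 3.37 and 4.69 CPM with no overlap, by 2.19 ± 0.30 on the log2 scale, and at day 1 by 2.25 ± 0.35. Both calls were lost without culture 41 and with passage as a covariate, and that at day 0 also without culture 38. Lama3 (2.88 ± 0.45) and Itgb3 (1.23 ± 0.20) rose at day 1, although in culture pair 42 they differed by -0.42 and -0.02, both calls were lost without culture 38 and without culture 41, and that of Itgb3 also with no replicate block. At day 2, Lamb2 (3.21 ± 0.62), Itgb5 (2.50 ± 0.44) and Itga11, a collagen receptor chain below 0.2 CPM, rose, and Lamc1 fell (-0.88 ± 0.13), from 85.6, 308 and 395 CPM to 88.7, 131 and 181 CPM. Lamc1 libraries overlapped, and culture pair 38 differed by 0.06. These 4 calls were lost without culture 41, without culture 42, with passage as a covariate and with no replicate block. Lamb1 was also called at day 2, but with libraries of 0, 0 and 0.0797 CPM in Control against 0, 0.0845 and 11.5 CPM in K27M its fitted fold change is no bound, and the call was lost without any 1 of the 3 cultures.

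For the members described at every comparison, the values in brainstem K27M that did not pass were as follows. Itgb1 changed by 0.07 ± 0.07, 0.33 ± 0.07, -0.22 ± 0.07 and 0.07 ± 0.07 at days 0, 1, 2 and 5, and Itgav by -0.27 ± 0.12, 0.02 ± 0.12, 0.18 ± 0.12 and 0.34 ± 0.12. Itgb8 changed by -0.17 ± 0.13, -0.44 ± 0.14, 0.78 ± 0.14 and 0.32 ± 0.13. Lama2 changed by 1.45 ± 0.51, 1.28 ± 0.49, 2.10 ± 0.45 and 0.43 ± 0.29, and Itga6 by 0.81 ± 0.22, 0.86 ± 0.23 and 1.09 ± 0.23 at days 0, 1 and 2. Lamc1 changed by 0.18 ± 0.12, 0.19 ± 0.13 and 0.01 ± 0.12 at days 0, 1 and 5, and Itgb3 by 0.53 ± 0.19, -0.03 ± 0.19 and 0.04 ± 0.19 at days 0, 2 and 5. Itgb5 changed by 1.75 ± 0.39 and 1.56 ± 0.44 at days 0 and 1, and Lamb1 by 0.95 ± 0.92, 3.84 ± 1.19 and 0.47 ± 1.11 at days 0, 1 and 5.

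Among the adhesion genes, brainstem K27M cells had 1, 3, 2 and 11 that rose and 0, 0, 0 and 1 that fell at the 4 days. The shares of all genes were 1.2%, 2.58%, 3.18% and 8.36% that rose and 0.248%, 2.35%, 1.09% and 3.78% that fell. With no replicate block 1, 1, 1 and 10 adhesion genes rose, against 0.678%, 1.24%, 1.67% and 5.22% of all genes. Nid1, the nidogen that bridges laminin and collagen IV networks, rose at days 0, 1 and 2 (2.68 ± 0.36, 3.01 ± 0.40 and 1.85 ± 0.35). Tns1 rose at day 1 (2.84 ± 0.47) and Fn1, which encodes fibronectin, at day 2 (1.97 ± 0.30). At day 5 Tnc and Thbs1 rose most (4.20 ± 0.42 and 4.13 ± 0.44) and Cd47 fell (-0.63 ± 0.12).

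In telencephalon, the counts of members changed by K27M were 0 up and 0 down at day 0, 1 and 0 at day 1, 1 and 3 at day 2, and 0 and 1 at day 5. At day 0, where edgeR in both fits called 0, 7 members had an unadjusted p under 0.05 on wells and 2 on culture sums, 3 passed by edgeR on wells alone, 0 by DESeq2 in both fits and 1 by DESeq2 on wells with a fold threshold of 1.1. Of all genes, 0.248% rose and 0.142% fell at day 0, 1.91% and 3.09% at day 1, 3.14% and 2.16% at day 2, and 1.48% and 0.794% at day 5. The median log2 fold change over members was -0.08, 0.14, 0.04 and 0.05, against -0.01, 0.02, 0.03 and 0.01 over all genes. The fit with no replicate block gave 0 and 0, 1 and 0, 1 and 1, and 0 and 0. It called 0.106% and 0.0304%, 0.647% and 0.718%, 1.44% and 0.653%, and 0.916% and 0.304% of all genes. Without culture 41 or without culture 42, 1 member rose at day 2 and 0 were called at the other days, and without culture 38 the totals were 0, 4, 1 and 1. With passage as a covariate the counts were 0 and 0, 1 and 1, 1 and 4, and 1 and 2. That setting gave 10 calls over the 4 days here and 6 in brainstem, where the fit without passage gave 6 and 15. The shares of all genes were not counted with passage or with a culture left out, so whether other genes moved the same way is not known.

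Itga4 (chr2:79255426-79333123) was the member that rose. At day 1 its libraries had 5.66, 9.14 and 14.4 CPM in Control and 21.7, 33.5 and 46.4 CPM in K27M, and at day 2 they had 1.32, 1.94 and 4.91 CPM and 7.22, 16.02 and 21.7 CPM. Neither day had overlapping libraries. The log2 fold changes were 1.83 ± 0.20 (adjusted p = 6.9e-13 on wells and 0.0026 on culture sums) and 2.78 ± 0.22 (2.5e-21 and 1.7e-05). The day 2 call held in all 14 alternatives that could end it, with fold changes from 2.45 to 3.24, and the pairs 38, 41 and 42 differed by 2.91, 3.29 and 2.09. The day 1 call was lost without culture 41 and without culture 42. At day 0 the K27M libraries, at 8.42, 10.6 and 16.1 CPM, overlapped with those of Control, at 7.52, 11.8 and 15.1 CPM. Summed oligodendrocyte markers at day 2 were 19200, 21440 and 30700 CPM in Control and 7794, 13920 and 24360 CPM in K27M, and summed OPC markers were 1264, 1336 and 1827 CPM and 1320, 2229 and 2382 CPM. Their part in the Itga4 calls was not tested.

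**Figure D5:**
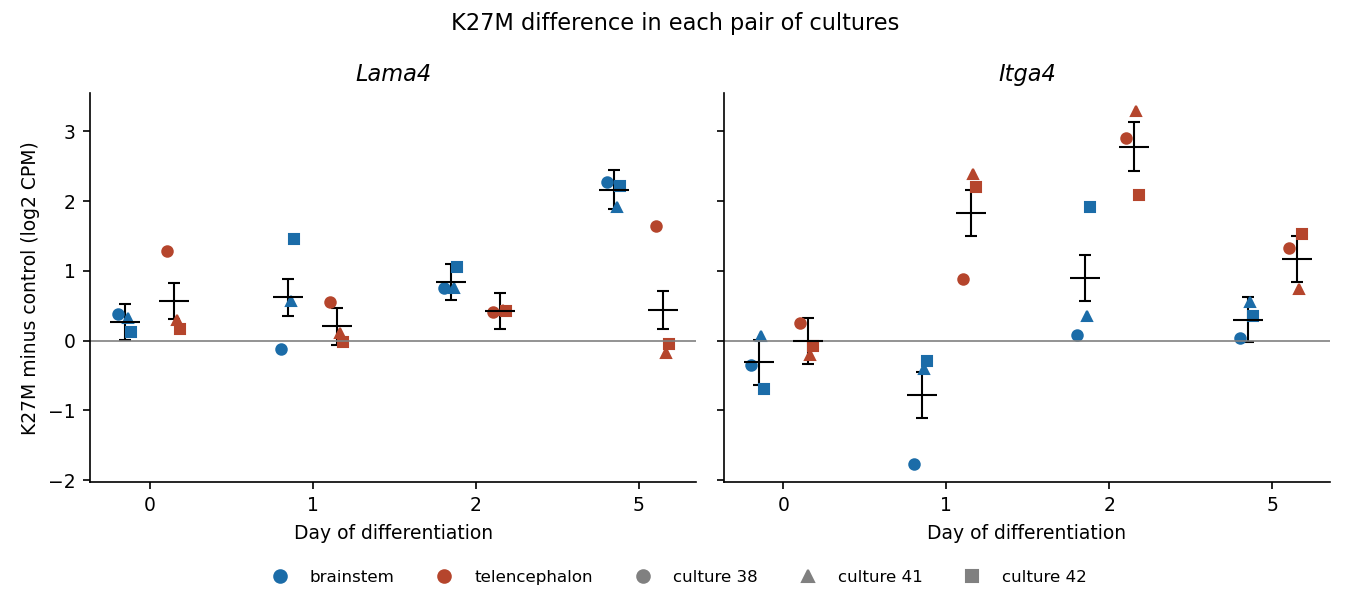
K27M minus Control difference on the log2(CPM + 0.1) scale for Lama4 and Itga4 in each culture pair, by region and day, with the fitted log2 fold change and the SE of the fit on culture sums as a black bar. Brainstem Lama4 at day 5 has pairs at 1.92 to 2.27, and telencephalon Itga4 at day 2 has pairs at 2.09 to 3.29.

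The members that fell in telencephalon K27M did so at days 2 and 5. At day 2 Itga7, the laminin receptor chain best known from muscle, fell by 1.99 ± 0.28 on the log2 scale, from 11.4, 35.6 and 46.9 CPM to 3.25, 5.60 and 27.9 CPM, and the groups overlapped through 1 K27M library. Itga2b, the platelet receptor chain, fell by 0.76 ± 0.15 and Lamc1 by 0.73 ± 0.12, from 226, 281 and 297 CPM to 145, 162 and 188 CPM, which did not overlap. These 3 calls were each lost when any 1 culture was left out, and those of Itga2b and Lamc1 also with no replicate block. Itgav fell at day 5 (-0.66 ± 0.12), from 169, 285 and 374 CPM to 145, 161 and 209 CPM, which overlapped, and the call was lost without culture 41, without culture 42 and with no replicate block. The summed astrocyte markers at day 2 had 330, 1623 and 2588 CPM in Control and 70.0, 134 and 1341 CPM in K27M, and their part in the falls was not tested.

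The values that did not pass in telencephalon K27M included those of Itga6 at all 4 days (-0.22 ± 0.21, -0.17 ± 0.22, -1.14 ± 0.22 and -0.72 ± 0.21) and of Itgb1 (-0.01 ± 0.07, -0.41 ± 0.07, -0.36 ± 0.07 and -0.14 ± 0.07). Itgb8 changed by -0.24 ± 0.13, 0.60 ± 0.13, 0.56 ± 0.13 and 0.14 ± 0.13, Itgb5 by -0.58 ± 0.37, 0.17 ± 0.39, -1.12 ± 0.37 and -0.12 ± 0.35, and Itgb3 by 0.06 ± 0.18, -0.30 ± 0.19, 0.22 ± 0.18 and 0.56 ± 0.19. Lama2 changed by -0.71 ± 0.40, 0.26 ± 0.41, -0.87 ± 0.37 and 1.39 ± 0.29, and Lamb1 by -2.84 ± 2.26, -0.24 ± 1.26, 3.12 ± 1.59 and 0.10 ± 0.90. Lamc1 changed by 0.07 ± 0.12, -0.41 ± 0.12 and -0.01 ± 0.12 at days 0, 1 and 5, and Itgav by -0.01 ± 0.12, 0.11 ± 0.12 and -0.31 ± 0.12 at days 0, 1 and 2. Of the adhesion genes, 0, 2, 1 and 0 rose and 0, 3, 2 and 0 fell at the 4 days, and with no replicate block none were called. The shares of all genes were 0.248%, 1.91%, 3.14% and 1.48% that rose and 0.142%, 3.09%, 2.16% and 0.794% that fell. Fn1 (1.44 ± 0.27) and the adaptor Tns2 (0.94 ± 0.19) rose at day 1, when the kinase Fyn (-0.89 ± 0.13) and Ilk, a scaffold bound to beta chain tails (-0.66 ± 0.10), fell. At day 2 Tns2 rose (0.95 ± 0.19), and Nid2 (-1.33 ± 0.26) and Itgb1bp1 (-0.33 ± 0.07), which encodes an Itgb1 tail-binding protein, fell.

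Whether the K27M effect differed between regions was tested directly, as the brainstem effect minus the telencephalon effect. Members called higher and lower were 0 and 0 at day 0, 5 and 1 at day 1, 3 and 1 at day 2, and 4 and 0 at day 5. Of all genes, 0% were higher and 0.00506% lower at day 0, 6.53% and 3.86% at day 1, 0.961% and 0.0911% at day 2, and 4.46% and 0.653% at day 5. The median difference over members was 0.35, 0.70, 0.17 and 0.20, against 0.04, 0.01, -0.03 and -0.07 over all genes. At day 0, where edgeR in both fits called 0, 12 members had an unadjusted p under 0.05 on wells and 7 on culture sums, 7 passed by edgeR on wells alone, 0 by DESeq2 in both fits and 5 by DESeq2 on wells with a fold threshold of 1.1. With no replicate block, 0% and 0.00506%, 1.68% and 0.435%, 0.218% and 0.0101%, and 1.43% and 0.0809% of all genes were called. The member counts in that fit were 0 and 0, 2 and 1, 0 and 0, and 3 and 0. Without culture 41 they were 0 at every day, without culture 42 a total of 4 at day 1 and 0 at days 2 and 5, and without culture 38 a total of 4, 0 and 7 at days 1, 2 and 5. The shares of all genes were not counted with a culture left out.

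Itga4 had the opposite pattern to the other called members, with a more positive K27M effect in telencephalon. The differences were -2.61 ± 0.28 at day 1 (adjusted p = 0.0038 on culture sums) and -1.88 ± 0.29 at day 2. The day 1 difference was lost only without culture 41, and its values in the pairs 38, 41 and 42 were -2.66, -2.79 and -2.50. The day 2 difference was -0.17 in pair 42 and was lost when any 1 culture was left out, with passage as a covariate and with no replicate block.

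Towards brainstem, Lama3, Itga2, Itgb7, Itgb3 and Itgb1 differed at day 1, by 4.31 ± 0.60, 2.55 ± 0.46, 2.16 ± 0.38, 1.53 ± 0.27 and 0.74 ± 0.10. The calls of Itgb7, Itgb3 and Itgb1 were lost with no replicate block and with the shared block, all 5 were lost without culture 41, and those of Itga2, Itgb3 and Itgb1 also without culture 42. Lamb2 (5.17 ± 0.76), Itga7 (2.79 ± 0.39) and Itga6 (2.23 ± 0.31) differed at day 2, and all 3 calls were lost with no replicate block, with passage as a covariate and when any 1 culture was left out. At day 5, Itga6 (2.13 ± 0.31), Itga3 (2.01 ± 0.29), Lama4 (1.73 ± 0.23) and Itgav (1.00 ± 0.17) differed, and each of these calls was lost without culture 41 and without culture 42, and that of Itga6 also with no replicate block. Without the 5 wells with the most genes detected, only Lama4 was called at day 5, when 1.08% of all genes were higher and 0.049% lower. The pairs 38, 41 and 42 differed for Lama4 by 0.63, 2.09 and 2.26.

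Itga6 had differences of 1.03 ± 0.30 and 1.03 ± 0.31 at days 0 and 1, and Itgav of -0.26 ± 0.17, -0.10 ± 0.17 and 0.49 ± 0.17 at days 0, 1 and 2, without passing. At days 0, 2 and 5, Itgb1 had 0.08 ± 0.10, 0.13 ± 0.10 and 0.21 ± 0.10 and Itgb3 had 0.48 ± 0.26, -0.25 ± 0.27 and -0.52 ± 0.27, again without passing. The other members described at every comparison did not pass in the difference at any day. Itgb8 had values of 0.08 ± 0.19, -1.04 ± 0.19, 0.21 ± 0.19 and 0.18 ± 0.19, Lamc1 of 0.11 ± 0.17, 0.60 ± 0.18, -0.14 ± 0.18 and 0.02 ± 0.17, and Itgb5 of 2.33 ± 0.54, 1.40 ± 0.59, 3.61 ± 0.58 and 2.05 ± 0.51. Lama2 had 2.16 ± 0.65, 1.02 ± 0.65, 2.97 ± 0.58 and -0.96 ± 0.41, and Lamb1 had 3.78 ± 2.46, 4.08 ± 1.75, 3.57 ± 2.99 and 0.37 ± 1.40. Of the adhesion genes, 10 were called higher at day 1 and 10 at day 5, where 6.53% and 4.46% of all genes were higher. Among them were Tns1 (3.77 ± 0.62) and Nid1 (2.35 ± 0.54) at day 1 and Thbs1 (4.34 ± 0.57) and Fn1 (2.64 ± 0.35) at day 5. With no replicate block, 1 and 7 were called higher at those days, against 1.68% and 1.43% of all genes.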

How the data were processed

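Total RNA of each well was sequenced with a stranded kit, and the authors quantified each library with Salmon 1.10.1 against mm10 with Gencode annotation in the nf-core pipeline. The deposited files hold estimated counts of read pairs, TPM and effective length per transcript, 1 file per library with no pooling. Of 141084 transcripts, 139821 matched the GENCODE release used here, and the others, with 0.252 to 0.377% of the counts, were not used. Gene totals of the expected counts, rounded to whole numbers, entered the tests. edgeR 4.0.16 (R 4.3.3) quasi-likelihood tests with TMM were fitted once to all libraries, with filterByExpr, 16 groups and culture within region as the replicate block, as in the study's use of culture identity, and again on counts summed per culture and day. A call needed a Benjamini-Hochberg adjusted p under 0.05 in both fits. All 18 comparisons used these fits, and log2 fold changes with SE are from the fit on wells. CPM values are scaled by TMM, and levels between genes use TPM. One member is included in the counts but not reported by itself here. Group medians, culture means and SD over 3 cultures are descriptions.

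Cultures of a number were matched Control and K27M pairs per the methods of the study. In a check, the deviations of same-numbered samples correlated at -0.106 to 0.524 over 24 pairs, with 3 at or below 0.1. Named genes were 9 members given at every comparison, the up to 4 highest and 4 lowest called members by log2 fold change with a mean of at least 1 CPM, and up to 2 adhesion genes per direction by the same rule. The members and gene lists were chosen with earlier results of these data known. A total of 16 alternatives were tried, among them DESeq2 1.42.0, other normalization, filters and blocks, passage and left-out cultures. The use of shared culture numbers and the removal of the 5 wells with the most detected genes were added after the data were seen. Promoter sequence came from RefSeq on GRCm38.p6. p-values on culture sums rest on the residual spread of the sums, with 3 cultures a group, over all 16 groups after the replicate block. Those on wells, and the SE printed with log2 fold changes, take wells as the unit. A value of several SE could therefore still fail on culture sums.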

Additional observations from a re-analysis of the deposited data

Results flagged for a closer look

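Within groups of 8 or 9 libraries, 288 groups of 18 members were searched for a single library apart from the rest by Dixon's criterion, and 25 were found, where chance gives about 1 in 20 groups of independent samples. These libraries are wells of 3 cultures a group and are not independent, so that share is a rough guide. The 18 members were chosen after their levels were seen. Telencephalon K27M culture 42 well 1 was the highest library for Itga6 (27.7 CPM) and Itga7 (15.1 CPM) at day 1 and for Itga6 (47.8 CPM), Itga7 (27.9 CPM), Itgb5 (13.9 CPM), Lama5 (13.3 CPM) and Lamb2 (18.1 CPM) at day 2. Telencephalon Control day 2 culture 42 well 3 was the highest for Itga4 (4.91 CPM), Itgb4 (1.86 CPM) and Lama2 (3.77 CPM) and the lowest for Itga9 (8.26 CPM), Itgb7 (2.20 CPM) and Lama4 (16.4 CPM). Itgav was lowest in 1 library each of brainstem K27M day 0 (163.0 CPM), telencephalon Control day 0 (172.0 CPM) and telencephalon Control day 2 (131 CPM). Itga7 was lowest in telencephalon Control day 0 culture 41 well 3 (17.5 CPM), and Itga8 was highest in telencephalon K27M day 5 culture 38 well 3 (70.1 CPM). Lamb1 had a single high library in brainstem Control day 2 (0.0797 CPM), brainstem K27M day 1 (6.45 CPM), telencephalon Control day 0 (0.219 CPM), day 1 (0.804 CPM) and day 5 (3.37 CPM), and telencephalon K27M day 0 (0.0222 CPM) and day 5 (3.87 CPM).

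In 11 cases among the same members the K27M effect differed between regions in the test of the difference itself, as brainstem minus telencephalon on the log2 scale. At day 1 the differences were -2.61 for Itga4, 0.74 for Itgb1, 1.53 for Itgb3 and 2.16 for Itgb7. At day 2 they were -1.88 for Itga4, 2.23 for Itga6, 2.79 for Itga7 and 5.17 for Lamb2, and at day 5 they were 2.13 for Itga6, 1.00 for Itgav and 1.73 for Lama4.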

How the results depend on the processing

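Counts of called members moved by over 1.5 times as follows. With no replicate block, the difference of K27M effects had 3 and 0 calls at days 1 and 2, K27M in brainstem 1 and 3 at days 2 and 5, K27M in telencephalon 2 and 0 at days 2 and 5, and region 4 at day 5. With culture number shared across regions as the block, these were 3 and 0, 1 and 3, 2 and 0, and 5. The block moved no other count by that much. Passage as a covariate gave 0 calls for the difference at day 2, 0, 2 and 2 for K27M in brainstem at days 0, 2 and 5, 2 and 3 for K27M in telencephalon at days 1 and 5, and 3, 7, 2 and 2 for region at the 4 days. It also turned Itgb5 in the region comparison at day 1 to 0.19 (adjusted p = 0.75).

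Wells alone gave 7, 16, 12 and 12 for the difference at the 4 days, 9, 19, 16 and 12 for K27M in brainstem, 3, 11, 17 and 12 for K27M in telencephalon, and 16 and 16 for region at days 0 and 5. DESeq2 on wells with a fold threshold of 1.1 gave 5, 13, 10 and 11, then 6, 12 and 13 for brainstem at days 0 to 2, 1, 8, 12 and 5 for telencephalon, and 13 for region at day 5. DESeq2 in both fits gave 8 for the difference at day 2, 2, 7 and 9 for brainstem at days 0 to 2, and 3 and 2 for telencephalon at days 1 and 5. At an adjusted p under 0.01, there were 1, 0 and 0 calls for the difference at days 1, 2 and 5, 0, 0, 0 and 2 for brainstem, 2 and 0 for telencephalon at days 2 and 5, and 8, 7 and 4 for region at days 1, 2 and 5. A fold of at least 2 and no filter on low counts each gave 2 and 0 for telencephalon at days 2 and 5, and an effective length offset gave 2 for brainstem at day 2. Without the 5 wells with the most genes detected, brainstem had 5 and 3 at days 1 and 5, telencephalon 2 at day 1, the difference 1 at day 5 and region 5 at day 5.

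Leaving out 1 culture gave 0 to 4, 0 and 0 to 7 for the difference at days 1, 2 and 5, 0 to 1, 0 to 5, 0 to 4 and 1 to 9 for brainstem, 0 to 4, 1 and 0 to 1 for telencephalon at days 1, 2 and 5, and 4 to 8, 7 to 11, 5 to 10 and 1 to 10 for region. For day 5 against day 0 the counts stayed at 19 to 22 and 20 to 21. DESeq2 size factors and culture sums alone moved no count by that much. The shares of all genes were counted only in the main fit, with no block, with the shared block and without the 5 wells. With 3 cultures a group, members below about 1 CPM rest on few reads, and the causes of these changes were not tested.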
